A study of Rattus norvegicus with 192 samples.

Results

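The genes described here are those of the cytokines, the chemokines and their receptors, taken as the 139 genes whose platform symbol begins with Ccl, Cxcl, Ccr, Cxcr or Il and a digit, or with Tnf or Ifn. The rule uses the symbol and no measured value, out of 13336 genes with a symbol on the array, and the set was taken up with earlier results of these data known. Together they had 142 of the 22502 probes, and a gene was read from its probe of highest mean raw signal. RNA levels came from Illumina BeadChips for rat, with prefrontal cortex from 87 and hippocampus from 84 adult female Sprague Dawley rats, with 84 rats giving both tissues. Ethanol rats were born to dams on a liquid diet with 36% ethanol calories, pairfed rats to dams held to an ethanol-fed partner's intake on an ethanol-free liquid diet, and control rats to dams on chow, in each case over gestation days 1 to 21. At 50 to 65 days of age the daughters received either complete Freund's adjuvant in the tail base (0.1 ml at 12 mg/ml), which sets off arthritis of the joints, or saline. Brains were collected on day 16 or day 39 after the injection. Adjuvant groups held 9 rats per diet and day, except 7 pairfed and 8 control rats in the hippocampus on day 39, and saline groups held 5 rats per diet on day 16 and 6 on day 39. No source used here names the litters, and each rat is treated as independent in the p-values.

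Cytokines are secreted signals of the immune system that act through paired receptor chains on the cell surface, and chemokines are a branch of them that steer migrating cells through receptors coupled to G proteins. In healthy brain the acute inflammatory members, such as interleukin-1, interleukin-6 and tumour necrosis factor, are held at very low levels, whereas a few members are made all the time by neurons, glia and vessels, such as Cxcl12, Il33 and Il34. The name rule also takes in genes that are neither cytokines nor their receptors: Il1rapl1 and Il1rapl2 encode synaptic adhesion proteins of the interleukin-1 receptor family, and the Tnfaip genes are named for their induction by tumour necrosis factor.

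A prefrontal cortex array detected 7578 to 10949 probes and a hippocampus array 8140 to 11235, at a detection p below 0.05. All 6 neuronal marker genes were detected on most arrays of both tissues, and Prox1, a marker of dentate granule neurons, was detected on 31 of 87 prefrontal cortex and 57 of 84 hippocampus arrays. Each chip of 12 arrays carried a single tissue, so tissue and chip cannot be told apart and levels were not tested between tissues. Over 43 probes that vary from rat to rat, the prefrontal cortex array of pairfed saline day 16 replicate 3 had a correlation of 0.274 with the hippocampus of its own rat and of 0.624 with that of another rat, whose own prefrontal cortex array is ethanol saline day 16 replicate 5. For the prefrontal cortex array of control adjuvant day 39 replicate 4 the values were 0.482 with its own rat and 0.485 with another, and the other 82 rats matched their own arrays. Both arrays were kept as labelled. For the first of them, no member was called in any prefrontal cortex comparison with or without it.

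Most of these genes were not detected in either tissue. In the prefrontal cortex 30 of the 139 (21.6%) were detected on at least 1 in 2 arrays, against 41.3% of all probes and 50.4% of probes with a symbol. In the hippocampus 35 (25.2%) were, against 42.4% of all probes and 51.5% of those with a symbol. A threshold of 0.05 lets through 4.35 of 87 and 4.2 of 84 arrays with no signal, and 16 members in prefrontal cortex and 15 in hippocampus passed it on no array at all. Members detected on all arrays numbered 7 in each tissue (5.04% of members, against 22.5% of all probes in the prefrontal cortex): Cxcl12, Ifngr1, Ifngr2, Tnfsf13, Tnfrsf11b and Tnfaip8 in both, with Ccl19 in prefrontal cortex and Il33 in hippocampus. With detection p below 0.01 the members on at least 1 in 2 arrays were 26 and 28.

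All 30 members detected in the prefrontal cortex were also detected in the hippocampus, and 5 (3.6%) passed in the hippocampus alone, against 2.24% of all probes; 1.12% of all probes passed in the prefrontal cortex alone. Il16, a chemoattractant precursor with a neuronal form, was detected on 9 of 87 prefrontal cortex and 73 of 84 hippocampus arrays. Cxcr1, a receptor for neutrophil chemokines, was detected on 2 and 44 arrays. Il6r, the interleukin-6 receptor, was detected on 42 prefrontal cortex and 71 hippocampus arrays, the chemokine Cxcl17 on 39 and 61, and Tnfrsf12a, the receptor of the TWEAK cytokine, on 42 and 60. The threshold was 44 arrays in prefrontal cortex and 42 in hippocampus.

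**Figure D1:**
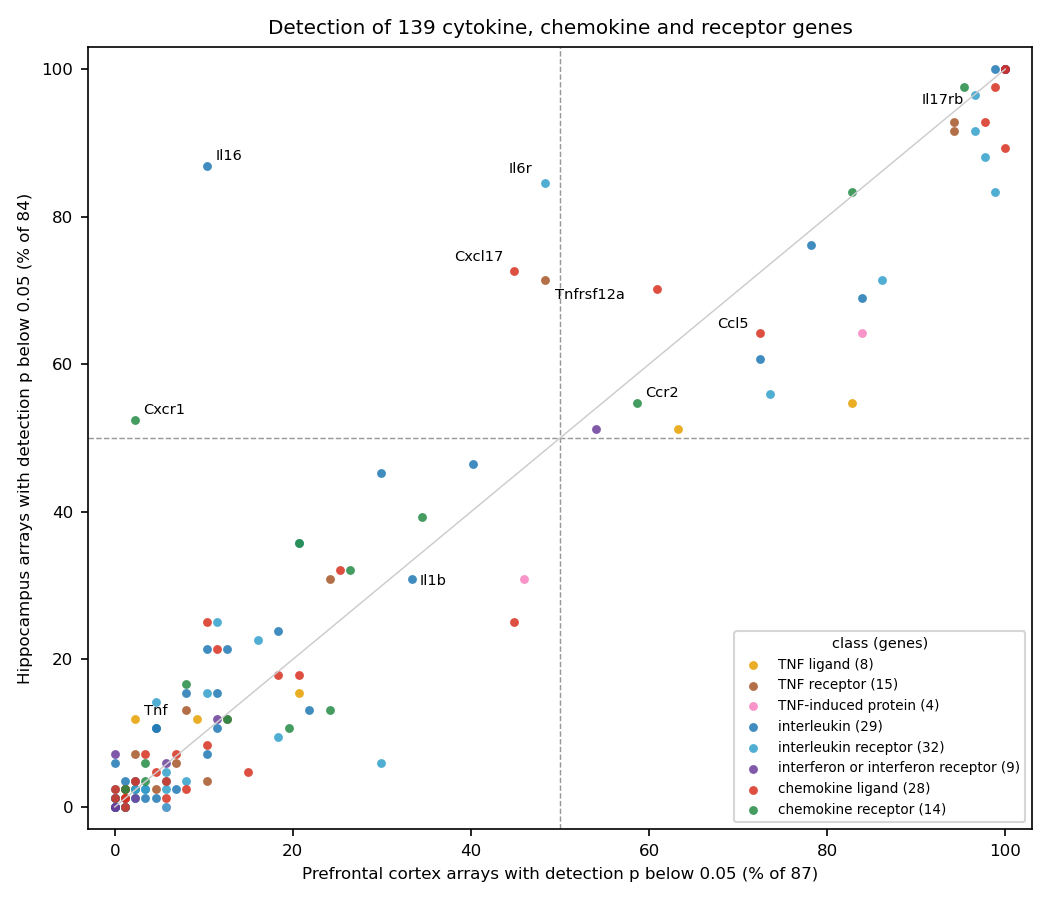
Each point is 1 of the 139 genes, placed by the percentage of prefrontal cortex arrays (x axis, of 87) and hippocampus arrays (y axis, of 84) on which it was detected, and coloured by class; dashed lines mark 50%. Most genes lie near the origin, 30 lie in the upper right, and Il16 (9 and 73 arrays) and Cxcr1 (2 and 44 arrays) lie near the left edge.

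Among the ligands, the acute inflammatory cytokines were at or near background. Il6 was detected on 0 of 87 prefrontal cortex and 5 of 84 hippocampus arrays, Tnf on 2 and 10, Ifng on 10 and 10, Il10 on 1 and 0, and Il1a on 6 and 2. Il1b, which encodes the released form of interleukin-1, was the most often detected of this group, on 29 and 26 arrays, and its natural antagonist Il1rn was detected on 4 and 9. For a gene at this level only an upper bound is measured, and neither its absence nor a change within that bound can be read from the arrays. The monocyte chemoattractant Ccl2 was detected on 6 and 6 arrays and the interferon-induced chemokines Cxcl9 and Cxcl10 on 10 and 18 and on 5 and 3.

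The ligands above background were a different set. Of 29 interleukins 4 were detected in the prefrontal cortex: Il33, an alarmin stored in the nucleus, at a log2 level of 8.51 ± 0.51 (SD, n = 87), Il34, a ligand of the microglial receptor Csf1r, at 6.05 ± 0.53, Il18 at 5.87 ± 0.55 and Il15 at 5.72 ± 0.47. In the hippocampus their log2 levels were 8.49 ± 0.42 (SD, n = 84), 5.70 ± 0.46, 5.86 ± 0.53 and 5.59 ± 0.50, and Il16 was the 5th at 6.29 ± 0.67. Of 28 chemokine ligands 6 and 7 were detected, among them Cxcl12, which guides neuronal precursors and holds stem cells in their niche, at 10.68 ± 0.33 in prefrontal cortex and 11.04 ± 0.47 in hippocampus. Ccl19 and Ccl27, which act in the homing of lymphocytes to lymph nodes and skin, had log2 levels of 7.66 ± 0.42 and 7.48 ± 0.46 in the prefrontal cortex, and Ccl5, a chemoattractant of T cells and monocytes, 5.99 ± 0.74. Of 8 ligands of the tumour necrosis factor family 3 were detected in each tissue, with Tnfsf13, a B cell survival factor also called APRIL, at 9.31 ± 0.32 and 9.12 ± 0.39.

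Of 9 interferon and interferon receptor genes 3 were detected, and all 3 were receptor chains. Ifngr1 and Ifngr2, the chains of the interferon-gamma receptor, had log2 levels of 8.07 ± 0.44 and 9.48 ± 0.36 in the prefrontal cortex, where Ifng itself was detected on 10 of 87 arrays. Ifnar1, a chain of the type I interferon receptor, was detected on 47 and 43 arrays, while the type I interferons Ifna4, Ifna5 and Ifnb1 were detected on 0 to 6 arrays of a tissue. Of 32 interleukin receptor genes 6 and 7 were detected, namely Il10rb, Il11ra1, Il17ra, Il17rb and the synaptic Il1rapl1 and Il1rapl2 in both tissues and Il6r in the hippocampus. Il6st, the signal-transducing partner of the interleukin-6 receptor, was detected on 0 arrays of either tissue, and Il1r1 and Il1rap, the chains of the interleukin-1 receptor, on at most 1. Each of these counts is of a single probe, and a probe without signal does not show that the RNA is absent. For Il33 the probe used was detected on 86 prefrontal cortex and 84 hippocampus arrays, and the gene's other probe on 1 and 0. Of 15 receptors of the tumour necrosis factor family 3 and 4 were detected, including the main receptor Tnfrsf1a (82 and 78 arrays) and Tnfrsf11b, the soluble decoy osteoprotegerin (all arrays). Of 14 chemokine receptors, Ccr2, Ccr3 and Ccr7 were detected in both tissues and Cxcr1 in the hippocampus, while Cxcr4, the receptor of Cxcl12, was detected on 18 and 30 arrays.

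**Figure D2:**
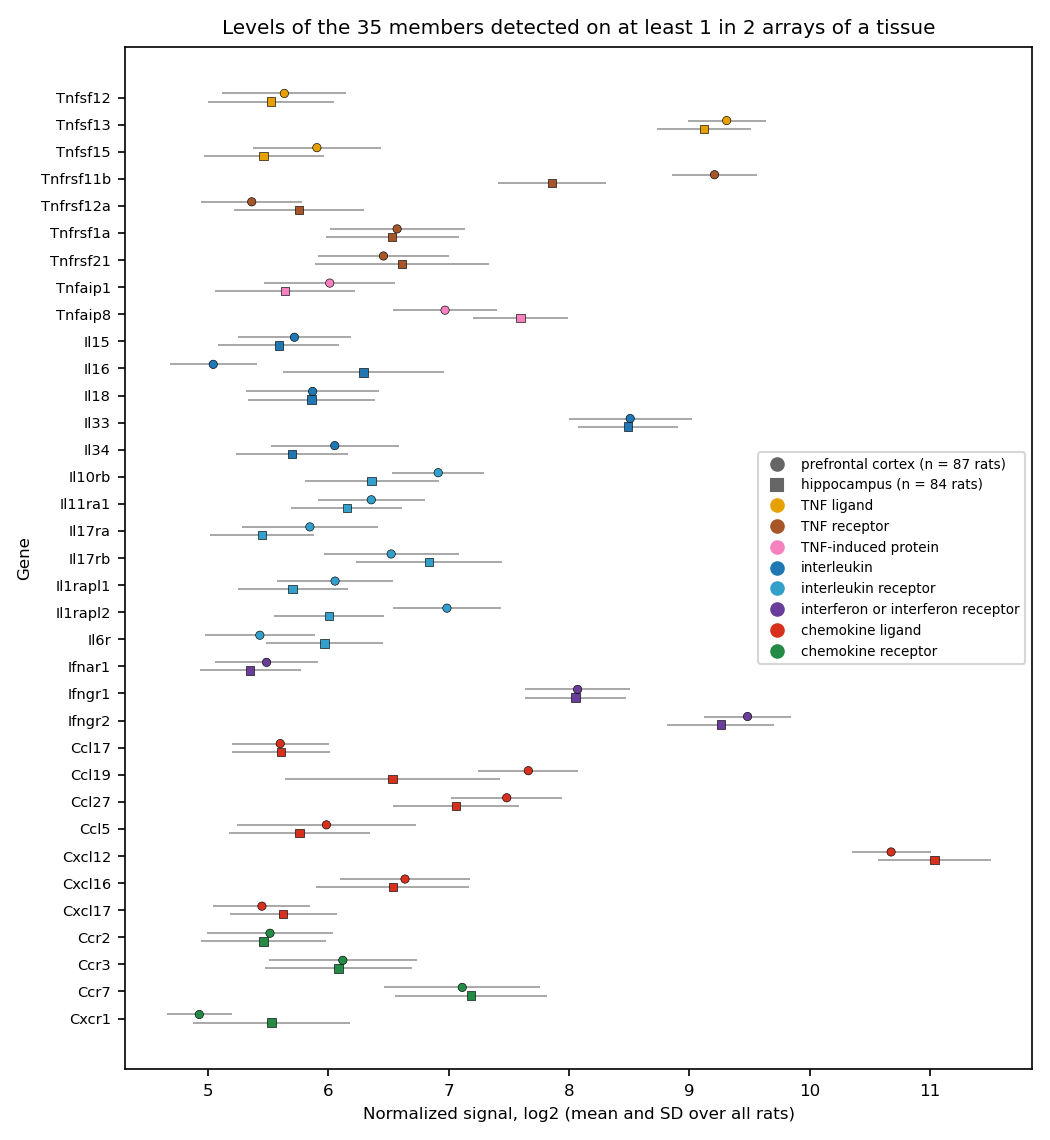
Mean normalized signal (x axis, log2) with SD bars for the 35 members detected on at least 1 in 2 arrays of a tissue (y axis, in alphabetical order within a class), with circles for the prefrontal cortex (n = 87 rats) and squares for the hippocampus (n = 84 rats). Signals of different probes are not comparable as amounts of RNA, and the tissues were not tested against each other.

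Of the 139 genes, 47 lay in 12 groups of 3 or more members within 500 kb of one another in the current RefSeq gene table (GRCr8). Il10rb, Ifnar1 and Ifngr2 are neighbours on chromosome 11, and all 3 were detected. On chromosome 14, 0 of 3 were detected among Cxcl11, Cxcl10 and Cxcl9, and 0 of 4 among Cxcl2, Cxcl1, Cxcl3 and Cxcl6. On chromosome 5, Il11ra1, Ccl27 and Ccl19 were detected and Ccl21 was not, and on chromosome 10 Ccl5 was the only one of 5 neighbours (with Ccl9, Ccl6, Ccl3 and Ccl4) and the group of Ccl2, Ccl7, Ccl11 and Ccl12 had none. In all, 10 of the 47 grouped genes (21.3%) and 25 of the other 92 (27.2%) were detected in a tissue.

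The 250 bases upstream of the start site were in the RefSeq promoter table for 108 members, 28 of them among the 35 detected in a tissue. These 28 held a median of 9.5 CG dinucleotides, against 4 in the other 80 and 6 in all 27457 genes of the table. At least 10 CG dinucleotides were found in 14 of 28 (50%), against 12 of 80 (15%) and 38.4% of all genes. The number ran from 0 to 29 in the 28 and from 0 to 33 in the other 80. Detected genes outside the set were not examined, so the contrast is not shown to be particular to these members. The letters TATAAA at 45 to 16 bases before the start, on the strand of the gene, were found in 0 of 28, against 10 of 80 (12.5%) and 1.79% of all genes. The following 4 promoters, chosen after their values were seen, show the contrast between 2 neighbours detected in both tissues and 2 neighbours that were not, and CG is in capitals. They are chr11:44265453-44265702 (plus strand) for Ifngr2, chr11:44211519-44211768 (plus strand) for Ifnar1, chr14:15988816-15989065 (plus strand) for Cxcl10 and chr14:15973478-15973727 (plus strand) for Cxcl11.
Ifngr2: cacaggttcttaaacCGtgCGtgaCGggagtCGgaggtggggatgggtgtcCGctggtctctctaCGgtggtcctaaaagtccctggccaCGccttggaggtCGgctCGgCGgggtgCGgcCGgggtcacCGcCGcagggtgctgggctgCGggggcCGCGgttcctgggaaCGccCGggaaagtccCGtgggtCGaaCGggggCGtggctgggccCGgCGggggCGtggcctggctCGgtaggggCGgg
Ifnar1: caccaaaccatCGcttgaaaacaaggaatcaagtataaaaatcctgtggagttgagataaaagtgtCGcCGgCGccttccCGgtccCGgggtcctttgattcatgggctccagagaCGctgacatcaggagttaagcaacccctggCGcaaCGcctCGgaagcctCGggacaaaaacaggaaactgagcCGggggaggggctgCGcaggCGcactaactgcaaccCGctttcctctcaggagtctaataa
Cxcl10: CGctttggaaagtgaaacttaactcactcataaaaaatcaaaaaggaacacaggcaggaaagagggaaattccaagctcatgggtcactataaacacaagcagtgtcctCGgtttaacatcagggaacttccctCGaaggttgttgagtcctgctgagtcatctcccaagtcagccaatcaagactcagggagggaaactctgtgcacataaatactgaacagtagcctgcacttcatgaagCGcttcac
Cxcl11: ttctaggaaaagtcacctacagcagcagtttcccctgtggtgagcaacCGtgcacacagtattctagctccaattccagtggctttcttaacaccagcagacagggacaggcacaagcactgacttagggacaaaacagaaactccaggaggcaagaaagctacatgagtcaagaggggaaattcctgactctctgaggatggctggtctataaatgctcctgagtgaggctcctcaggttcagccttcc
Ifngr2 holds 28 CG dinucleotides and Ifnar1 15, against 4 in Cxcl10 and 1 in Cxcl11, the only one of the 4 with TATAAA near its start. A match of letters is a description of the sequence and not of a site in use.

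How far the arrays resolved rats was measured on repeat arrays of the same rat. Over the detected members, the SD between rats of a group divided by the SD between repeats of 1 rat had a median of 1.22 in the prefrontal cortex (8 degrees of freedom, 1 rat) and 1.15 in the hippocampus (12 degrees of freedom, 4 rats), close to the 1.19 and 1.16 of all detected probes. The ratio was over 1.5 for 7 of 30 and 6 of 35 members. For Il33 in the prefrontal cortex the SD was 0.54 between rats and 0.18 between repeats on the log2 scale, a ratio of 2.96. A single array carried much of it: control adjuvant day 39 replicate 3 had an Il33 level of 5.31 and was not detected, while the other rats of its group lay between 8.10 and 9.12. Without that array, a setting added after the data were seen, the SD of Il33 between rats was 0.37 and the ratio 2.06. For Ccr2 in the hippocampus it was 0.52 between rats and 0.68 between repeats, and 5 and 10 detected members likewise had a ratio under 1.

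The first question of the design was how these genes in the brain differed between adjuvant and saline rats. No arthritis score of a rat entered the comparisons. Tested members were the 87 in prefrontal cortex and 85 in hippocampus with detection on at least 5 arrays, and a gene was called at a limma p, adjusted by Benjamini and Hochberg over all tested probes, below 0.05. No member was called for adjuvant against saline at either day in either tissue, while 20 of 15250 probes (0.131%) were called in the prefrontal cortex and 9 of 15320 (0.0587%) in the hippocampus on day 16, and 0 (0%) on day 39 in both. At an unadjusted p below 0.05 stood 5 of 87 members (5.75%) on day 16 and 5 (5.75%) on day 39 in the prefrontal cortex, against 4.96% and 5.34% of all probes. In the hippocampus 8 of 85 (9.41%) stood there on day 16 and 2 (2.35%) on day 39, against 6.47% and 5.03%. By direction, 5 and 5 members of the prefrontal cortex were higher in adjuvant rats, against 2.78% and 2.73% of all probes on day 16 and day 39. In the hippocampus 6 were higher and 2, Cxcl12 and Ccl2, were lower on day 16, against 2.94% and 3.52% of all probes, and 2 were higher on day 39, against 2.23%. These counts lean on the filter: Ccl3 in the prefrontal cortex on day 16, Il1rn and Ccl2 in the hippocampus on day 16 and Ccl11 there on day 39 had fewer than 5 detections outside the group in which they were higher, as had 1 or 2 of the members counted in some diet comparisons.

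The median difference of the members, adjuvant minus saline, was 0.01 on the log2 scale on day 16 in each tissue, against 0.00 in prefrontal cortex and -0.01 in hippocampus for all probes, and 0.04 and -0.01 on day 39, against 0.00 and -0.01. Of the 30 detected members in the prefrontal cortex, 28 had a 95% confidence interval within a 1.5-fold change on day 16 and 27 on day 39, and of the 35 in the hippocampus 24 and 29. The exceptions in the prefrontal cortex include Ccl5 at both days. For undetected members the intervals are narrow because the signal sits near the background, and they bound no fold change.

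**Figure D3:**
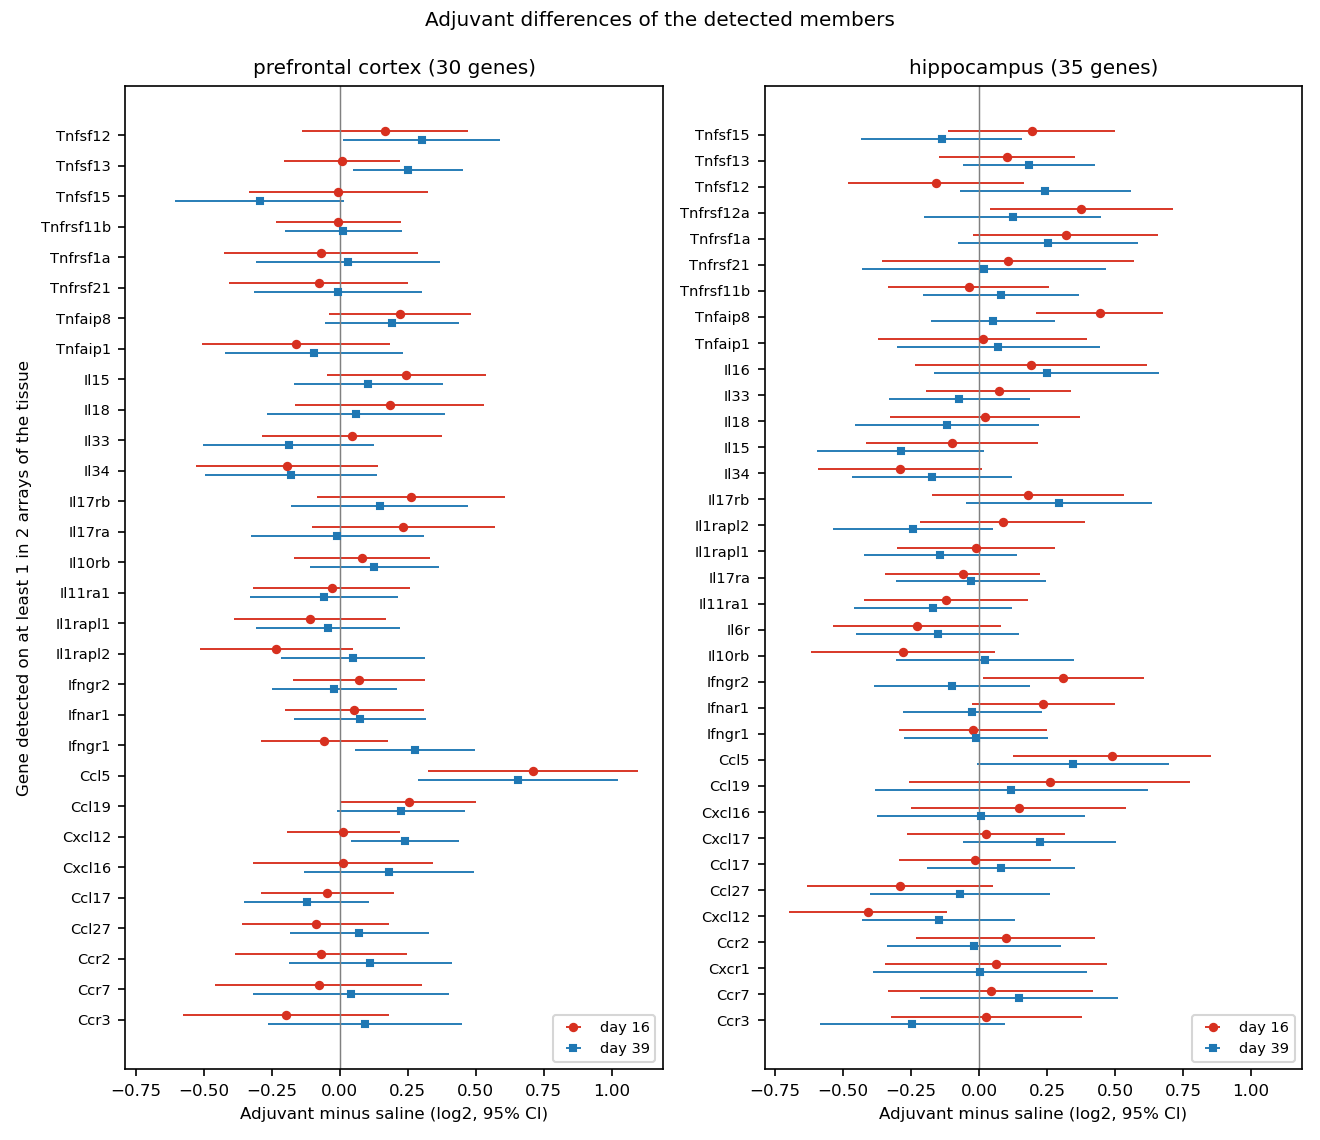
Adjuvant minus saline difference (x axis, log2) with 95% confidence intervals from limma for the members detected on at least 1 in 2 arrays of the prefrontal cortex (left, 30 genes) and hippocampus (right, 35 genes), on day 16 (red circles) and day 39 (blue squares). Most intervals include 0, and Ccl5 lies farthest to the right in the prefrontal cortex, at 0.71 on day 16 and 0.66 on day 39.

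Ccl5 had the smallest p of the members in the prefrontal cortex at both days. On day 16 its log2 level ran over 4.92, 6.36 and 7.64 (lowest, median and highest) in 27 adjuvant rats and over 4.69, 5.53 and 6.25 in 15 saline rats. The groups overlapped, with 20 of 27 adjuvant rats above the saline mean, and Ccl5 was detected in 21 of 27 adjuvant and 9 of 15 saline rats. The difference was 0.71 (SE 0.19, 1.64-fold, limma adjusted p = 0.179), and so did not pass. It was 0.31 on the authors' deposited values and 0.31 without background correction (limma adjusted p = 0.250 and 0.239). Differences were smaller in this way across the genes, and on the deposited values 113 of 130 single gene differences of these comparisons were smaller by over 1.5 times, with a median ratio of 0.475 to the values given here. On day 39 the levels were 4.89, 6.24 and 7.64 in 27 adjuvant rats and 4.59, 5.62 and 6.59 in 18 saline rats, a difference of 0.66 (SE 0.18, limma adjusted p = 0.481). The adjuvant rats had the higher mean on 7 of 8 chips at each day.

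In the hippocampus on day 16, Ccl5 ran over 4.88, 6.07 and 7.52 in 27 adjuvant rats and over 4.73, 5.54 and 6.77 in 15 saline rats. The difference was 0.49 on the log2 scale (SE 0.18, limma adjusted p = 0.633), with the higher mean in adjuvant rats on 7 of 7 chips. On day 39 the difference was 0.34 (SE 0.18, adjusted p = 0.957), so the difference was above 0 in 4 of 4 comparisons, whose tissues share rats, and none passed. The difference in response between the tissues on day 16, prefrontal cortex minus hippocampus, was 0.25 (SE 0.26, limma adjusted p = 1.00 in a joint fit), and the response of day 16 minus that of day 39 in the prefrontal cortex was 0.05 (95% confidence interval -0.48 to 0.59).

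Blood and leukocyte markers were read beside Ccl5, since T cells, monocytes and platelets carry its RNA and no rinsing of the vessels is stated in the labels. On day 16 the hemoglobin gene Hbb-b1 was higher in adjuvant rats by 0.82 in prefrontal cortex and by 1.13 in hippocampus (log2, limma adjusted p = 0.00362 and 0.000132), and 2 of the 4 and 2 of the 5 tested blood genes were called. The summed signal of the blood genes ran from 12898 to 41676 (median 24018) in adjuvant and from 10491 to 23840 (median 14113) in saline prefrontal cortex. Of 5 neutrophil genes S100a8 (1.69 and 1.31, log2) and Lcn2 (1.26 and 1.12) were called in both tissues, while Elane was detected on 1 and 2 arrays and S100a9 on 1 and 0. In the hippocampus the Hbb-b1 call was lost with median scaling (0.85, limma adjusted p = 0.0547), and the S100a8 and Lcn2 calls were lost with hemoglobin signal as a covariate (1.25 and 1.09, adjusted p = 0.277 and 0.142). The summed signal of the neutrophil genes ran from 158 to 675 in adjuvant and from 134 to 283 in saline prefrontal cortex. Of 5 T cell markers Cd3d was detected on 1 prefrontal cortex and 0 hippocampus arrays, Cd8a on 2 and 1 and Cd3e on 37 and 68, none of those tested was called on day 16, and their summed signal ran from 138 to 207 in adjuvant and from 136 to 205 in saline prefrontal cortex. With hemoglobin signal as a covariate the Ccl5 difference on day 16 was 0.56 (limma adjusted p = 0.859) in the prefrontal cortex and 0.38 (adjusted p = 0.990) in the hippocampus. Hbb-b1 was itself higher in adjuvant rats, so the covariate cannot separate blood from the injection. The part of blood or of infiltrating cells in the Ccl5 values was not tested. In whole tissue more cells of a type and more RNA per cell cannot be told apart.

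**Figure D4:**
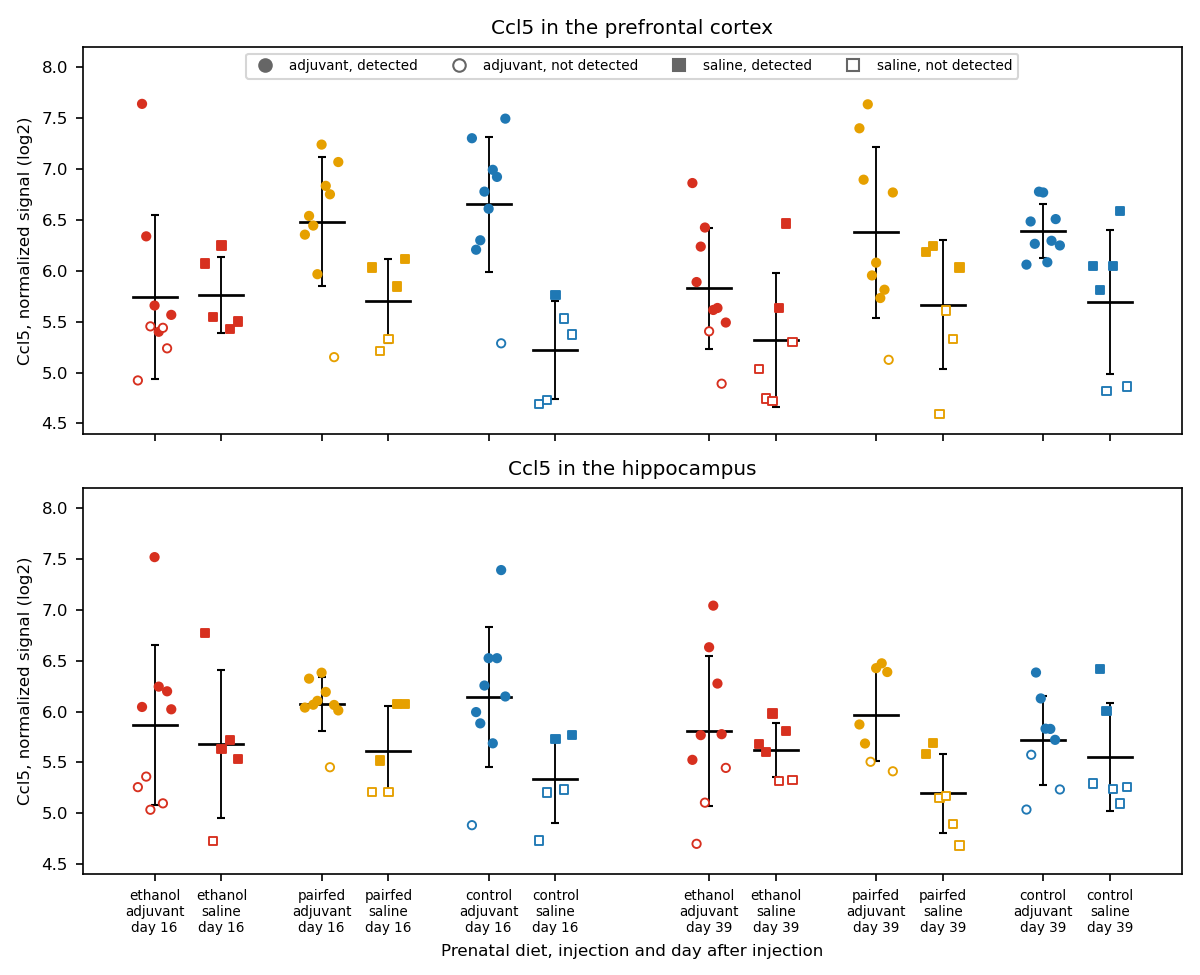
Ccl5 normalized signal (y axis, log2) of each rat in the prefrontal cortex (top) and hippocampus (bottom) by diet, injection and day (x axis), with circles for adjuvant and squares for saline, filled where the probe was detected; bars show the mean and SD of the group. In the prefrontal cortex on day 16 the 9 control adjuvant rats lie between 5.29 and 7.50 and 1 of the 5 control saline rats was detected, while the 9 ethanol adjuvant rats have a median of 5.45.

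In the hippocampus the smallest p on day 16 was that of Tnfaip8, a cell survival protein induced by tumour necrosis factor. Its log2 level ran over 6.65, 7.70 and 8.74 in 27 adjuvant rats and over 6.48, 7.26 and 7.72 in 15 saline rats, with detection in all of them. The difference was 0.44 (SE 0.12, limma adjusted p = 0.287), and on day 39 the medians were 7.70 in 24 adjuvant and 7.63 in 18 saline rats. Cxcl12 had the smallest p among members lower in adjuvant rats on day 16, with 9.26, 10.98 and 11.51 in adjuvant and 10.48, 11.27 and 11.43 in saline rats, so the spread was wider in adjuvant rats. Its difference was -0.41 (SE 0.15, limma adjusted p = 0.574), and the mean was lower in adjuvant rats on 6 of 7 chips. With median scaling the difference was -0.65 (limma adjusted p = 0.0693). In the prefrontal cortex the Cxcl12 difference was 0.24 on day 39 (adjusted p = 0.893), and the tissues' responses on day 16 differed by 0.39 (prefrontal cortex minus hippocampus, SE 0.17, limma adjusted p = 1.00).

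Meningeal cells also make Cxcl12, and the summed signal of 5 meningeal markers ran from 1951 to 17901 (median 4308) in adjuvant and from 2487 to 11956 (median 6442) in saline hippocampus on day 16, with none of the 5 called and Col1a1 detected on 13 of 84 arrays. With the hemoglobin covariate the Cxcl12 difference was -0.18. The part of meninges in the Cxcl12 values was not tested.

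The interleukin-1 pair was near background in both groups. In the prefrontal cortex on day 16 Il1b was detected in 12 of 27 adjuvant and 2 of 15 saline rats, with log2 levels of 4.75, 5.42 and 6.33 in adjuvant and 4.70, 5.05 and 5.86 in saline rats and a difference of 0.27 (SE 0.13, limma adjusted p = 0.995). In the hippocampus Il1b was detected in 11 of 27 adjuvant and 6 of 15 saline rats with a mean of 5.25 in each group. Il1rn was detected in 6 of 27 adjuvant and 0 of 15 saline rats there, which are 6 of the 9 hippocampus arrays that detected it, so that it was tested only through the group in which it was higher and no difference is read from it. The interferon-induced chemokine Cxcl11 was detected in 10 of 27 adjuvant and 1 of 15 saline hippocampi on day 16, with 4.61, 5.23 and 6.93 in adjuvant and 4.56, 4.99 and 5.83 in saline rats (difference 0.34, SE 0.13, adjusted p = 0.633). The levels of Il1b and Cxcl11 overlapped between the injections.

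On day 39 in the hippocampus Ccl11, the eosinophil chemokine eotaxin, was detected in 5 of 24 adjuvant and 0 of 18 saline rats, with log2 levels of 4.51, 4.87 and 6.11 in adjuvant and 4.44, 4.80 and 5.38 in saline rats. These are 5 of the 6 hippocampus arrays that detected it, so no difference is read from it either. Ifng was detected in 5 of 24 adjuvant and 1 of 18 saline rats (difference 0.27, SE 0.10, limma adjusted p = 0.957). In the prefrontal cortex on day 39 the 4 members after Ccl5 were all detected genes, Tnfsf13 (0.25), Ifngr1 (0.28), Cxcl12 (0.24) and Tnfsf12, the TWEAK cytokine (0.30), with limma adjusted p from 0.857 to 0.918.

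Between day 16 and day 39 no member's adjuvant response was called different. At an unadjusted p below 0.05 stood 3 of 87 members (3.45%) in the prefrontal cortex, against 4.55% of all probes, and 5 of 85 (5.88%) in the hippocampus, against 3.8%, with 0% called in either. Between the tissues on day 16, 0 of 75 members and 0% of 14441 probes were called, and 2 (2.67%), Cxcl12 and Cxcl11, stood at an unadjusted p below 0.05, against 4%.

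The intracellular genes through which these receptors signal were read from 3 lists. Of 19 tested NF-kappaB genes in the prefrontal cortex on day 16, 1 was called, Nfkbia, the feedback inhibitor of the pathway, which rose by 0.59 (log2, SE 0.13, limma adjusted p = 0.0160). The call was lost without the saline rat ethanol saline day 16 replicate 5 (difference 0.55, limma adjusted p = 0.0597), with median scaling (0.65, adjusted p = 0.0748) and with the hemoglobin covariate (0.63, adjusted p = 0.100). The list's median there was 0.08 with 17 of 19 above 0, against a median of 0.00 and 50.5% above 0 for all probes. The list was not tested as a set, and its genes are not independent measurements. In the hippocampus Nfkbia had a difference of 0.32 (adjusted p = 0.682), and 0 of 19 were called. Of the JAK-STAT genes 0 of 15 and 0 of 16 were called, with medians of 0.02 and -0.05, and of the interferon-induced genes 0 of 18 and 0 of 16, with medians of 0.05 and -0.02. On day 39 none of the 3 lists had a called gene in either tissue.

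The second question was whether prenatal ethanol altered these genes at steady state, in saline rats of both days (11 per diet and tissue). No member was called for ethanol against control or ethanol against pairfed in either tissue, where 0% of all probes were called too. At an unadjusted p below 0.05 stood 4 of 87 members (4.6%) for ethanol against control in the prefrontal cortex, against 5.17% of all probes, and 1 of 85 (1.18%) in the hippocampus, against 3.06%. For ethanol against pairfed there were 5 (5.75%) in the prefrontal cortex, against 4.2%, and 4 (4.71%) in the hippocampus, against 2.57%. Confidence intervals within a 1.5-fold change were reached by 19 of 30 detected members for ethanol against control in the prefrontal cortex and 21 of 35 in the hippocampus, and by 16 and 15 for ethanol against pairfed.

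The smallest p for ethanol against control in the prefrontal cortex was that of Cxcl9, which draws activated T cells. Its log2 levels were 4.69, 4.97 and 5.34 in ethanol, 4.49, 4.92 and 6.13 in pairfed and 4.92, 5.32 and 5.68 in control rats, with detection in 0, 2 and 4 of 11 rats. The difference was -0.34 (SE 0.14, limma adjusted p = 0.910), at a level close to background in each diet. Ifngr1, detected in all rats, ran over 7.01, 7.62 and 8.79 in ethanol and over 7.87, 8.15 and 8.60 in control rats, with a difference of -0.38 (SE 0.16, adjusted p = 0.910). Il15, which sustains natural killer and memory T cells, had 4.98, 5.89 and 6.31 in ethanol and 4.85, 5.16 and 6.26 in control rats, a difference of 0.46 (SE 0.20, adjusted p = 0.954). In the hippocampus Il12a, a subunit of interleukin-12, had 4.68, 4.99 and 5.77 in ethanol and 4.86, 5.53 and 6.87 in control rats, with detection in 4 and 7 of 11 and a difference of -0.41 (SE 0.19, adjusted p = 1.00).

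Against pairfed rats the smallest p in the prefrontal cortex was that of Il17ra, the shared chain of the interleukin-17 receptors. It ran over 5.03, 6.23 and 6.79 in ethanol, 4.84, 5.19 and 6.36 in pairfed and 4.67, 5.96 and 6.52 in control rats, with detection in 10, 5 and 7 of 11. The difference was 0.71 (SE 0.23, limma adjusted p = 0.998), and against control rats it was 0.42 (SE 0.23, adjusted p = 0.976), so the control rats lay between the liquid diets. In the hippocampus it was Tnfsf10, the death ligand TRAIL, with 4.89, 5.22 and 5.52 in ethanol and 4.45, 4.81 and 5.86 in pairfed rats and detection in 4 and 1 of 11 (difference 0.31, SE 0.14, adjusted p = 1.00). Il17rb, the receptor of interleukin-25, had 6.26, 6.76 and 7.46 in ethanol and 4.91, 6.27 and 7.54 in pairfed rats there (difference 0.50, SE 0.23, adjusted p = 1.00). The comparisons with pairfed and with control rats share the ethanol rats and are not independent.

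For pairfed against control saline rats 0% of probes and no member were called. Unadjusted p below 0.05 was found for 4 of 87 members (4.6%) in the prefrontal cortex, against 5.14%, and 5 of 85 (5.88%) in the hippocampus, against 3.07%. Tnfrsf21, a death receptor of neurons, had 4.68, 6.29 and 6.87 in pairfed and 5.95, 6.83 and 7.47 in control prefrontal cortex (difference -0.61, SE 0.22, limma adjusted p = 0.951). Tnfrsf11b had 6.36, 7.67 and 8.27 in pairfed and 7.40, 8.12 and 8.45 in control hippocampus (difference -0.52, SE 0.19, adjusted p = 1.00).

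The third question was whether prenatal ethanol altered the genes in adjuvant rats. On day 16 no member was called in either tissue against control or pairfed rats, with 0% of probes called. In the prefrontal cortex 9 of 87 members (10.3%) stood at an unadjusted p below 0.05 for ethanol against control, against 4.73% of all probes, and 8 (9.2%) for ethanol against pairfed, against 2.5%. In the hippocampus there were 8 of 85 (9.41%), against 4.51%, and 2 (2.35%), against 5.35%. Both comparisons share the ethanol rats. Not all members were lower in ethanol rats. In the prefrontal cortex Il25 had mean log2 levels of 5.23 in ethanol, 4.85 in pairfed and 4.89 in control rats. It was detected in 5, 0 and 0 of 9 rats, close to background.

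Il1rapl1, the synaptic protein, had log2 levels of 4.82, 5.59 and 6.31 in 9 ethanol, 5.53, 6.22 and 6.67 in 9 pairfed and 6.06, 6.44 and 7.03 in 9 control adjuvant rats of day 16 in the prefrontal cortex. The ethanol rats reached lower than either other diet and overlapped both. The difference was -0.78 against control (SE 0.21, limma adjusted p = 0.443) and -0.54 against pairfed (SE 0.21, adjusted p = 1.00). On day 39 it was 0.34 against control (SE 0.21, adjusted p = 0.992), of the opposite sign. In repeat arrays of 1 rat Il1rapl1 had an SD of 0.45, as large as the 0.44 between rats.

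Ccl5 ran over 4.92, 5.45 and 7.64 in 9 ethanol, 5.15, 6.54 and 7.24 in 9 pairfed and 5.29, 6.78 and 7.50 in 9 control adjuvant rats of day 16 in the prefrontal cortex, with detection in 5, 8 and 8. Only 1 ethanol rat exceeded the control mean and 1 the pairfed mean. The difference was -0.88 against control (SE 0.29, limma adjusted p = 0.903) and -0.71 against pairfed (SE 0.29, adjusted p = 1.00). On day 39 it was -0.50 against control (SE 0.29, adjusted p = 0.992) and -0.52 against pairfed (SE 0.29, adjusted p = 1.00), with medians of 5.63 in ethanol, 6.08 in pairfed and 6.29 in control rats. In the hippocampus on day 16 it was -0.28 (SE 0.26) and -0.18 (SE 0.26).

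Within each diet, the day 16 difference of Ccl5 between adjuvant and saline in the prefrontal cortex was 0.10 (SE 0.34) in ethanol, 0.70 (SE 0.34) in pairfed and 1.33 (SE 0.34) in control rats. The response of ethanol minus that of control rats was -1.24 (SE 0.49, 95% confidence interval -2.21 to -0.26, limma adjusted p = 0.896), the smallest p of the members in that test. Against pairfed rats it was -0.60 (SE 0.49, adjusted p = 1.00). In the hippocampus the day 16 differences were 0.20 (SE 0.31) in ethanol, 0.47 (SE 0.31) in pairfed and 0.79 (SE 0.31) in control rats. The order of diets was the same, but the tissues share rats and are not independent. For Ccl5 ethanol minus control was -0.59 there (SE 0.44, adjusted p = 1.00). In that test Ccr1, not a detected member, had the smallest p (-0.81, SE 0.28, limma adjusted p = 0.9995). Among detected members Tnfrsf1a did (-0.98, SE 0.41, limma adjusted p = 0.9995). The saline groups of 5 rats set these errors, and 1 of 5 control and 5 of 5 ethanol saline rats had detectable Ccl5 in the prefrontal cortex.

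Over all members the response test called none, with 0% of probes called. For ethanol against control 4 of 87 (4.6%) stood at an unadjusted p below 0.05 in the prefrontal cortex, against 5.32%, and 3 of 85 (3.53%) in the hippocampus, against 4.3%. For ethanol against pairfed there were 2 (2.3%), against 3.1%, and 4 (4.71%), against 3.68%. Over the detected members the median 95% confidence interval for ethanol against control reached 0.75 log2 units either side for prefrontal cortex and 0.77 for hippocampus, and 0 of them had one within a 1.5-fold change, so differences of that size in response could not be resolved here.

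On day 39 in adjuvant rats no member was called, and the only called probes were 2 of 15320 (0.0131%) for ethanol against control in the hippocampus, with 0% in the other 3 comparisons. Unadjusted p below 0.05 was found for 4 of 87 members (4.6%) against control and 1 (1.15%) against pairfed in the prefrontal cortex, against 4.72% and 3.7% of all probes. In the hippocampus 4 of 85 (4.71%) and 9 (10.6%) were found, against 7.33% and 5.44%. Tnfsf13 ran over 8.42, 9.78 and 10.20 in 9 ethanol, 8.65, 8.98 and 9.75 in 7 pairfed and 8.50, 8.99 and 9.36 in 8 control hippocampi, with a difference of 0.60 against control (SE 0.19, limma adjusted p = 0.385) and 0.44 against pairfed (SE 0.19, adjusted p = 0.897). Tnfrsf12a ran over 5.36, 6.26 and 6.67 in ethanol, 5.06, 5.65 and 6.16 in pairfed and 4.74, 5.35 and 6.13 in control rats, with 0.72 (SE 0.25, adjusted p = 0.485) and 0.54 (SE 0.26, adjusted p = 0.897). In both genes the ethanol rats overlapped the other diets. Tnf was lower in ethanol than in pairfed rats there, with mean log2 levels of 5.04 in ethanol, 5.41 in pairfed and 4.76 in control rats. It was detected in 0 of 9, 4 of 7 and 0 of 8 of them, close to background.

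Whether a rat that was high in one tissue was high in the other was tested on deviations from group and chip in 84 rats, over 14441 probes tested in both tissues, with 100000 permutations and Benjamini-Hochberg adjustment over all of them. It held for 3 of 75 members (4%), against 281 of all probes (1.95%), and the median correlation of members was 0.04, against 0.03. Il17rb had a Pearson correlation of 0.44 (permutation p = 5e-05, adjusted p = 0.00539) and a Spearman correlation of 0.43 (permutation p = 1e-04), with 0.43 left without the 2 rats farthest from the median. The Il17rb probe used was detected on 84 prefrontal cortex and 81 hippocampus arrays, and the gene's other probe, not read here, on 21 and 23. Ccl5 had 0.41 (permutation p = 9e-05, adjusted p = 0.00812) and 0.38 (permutation p = 0.0004), with 0.31 left without the 2 farthest rats. Ccr2, the receptor that brings in blood monocytes, had 0.36 (permutation p = 0.00069, adjusted p = 0.0385) and 0.36 (permutation p = 0.00075), with 0.33 left. In the hippocampus the Ccr2 SD between rats was smaller than that between repeat arrays of the same rat. Without the 2 rats whose prefrontal cortex array did not match, a setting added after the data were seen, the Pearson correlations over 82 rats were 0.46, 0.41 and 0.37 (permutation, adjusted p = 0.00267, 0.0104 and 0.0306), and 3 of 75 members passed, against 1.86% of probes. Over all 84 rats Cxcl11 (0.32, adjusted p = 0.108) and Il1b (0.30, adjusted p = 0.158) did not pass. Litters are not given here, and both tissues of a rat share its blood.

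**Figure D5:**
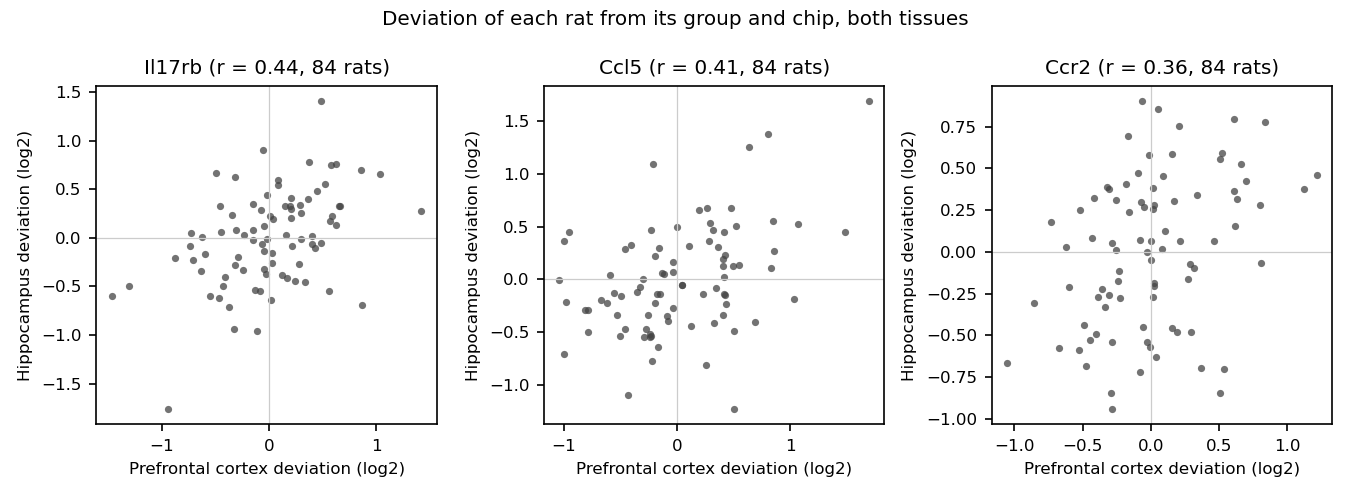
Deviation of each of 84 rats from its group and chip in the prefrontal cortex (x axis, log2) and hippocampus (y axis, log2) for Il17rb, Ccl5 and Ccr2, the 3 members whose deviations were correlated between the tissues. Pearson correlations are 0.44, 0.41 and 0.36.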

How the data were processed

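The deposited table holds, per probe and array, a raw signal, read here as log2 from its values, and a detection p-value, named in the file header. The authors' deposited second table of processed values is on a log2 scale too, with scanner software and normalization not given in the sources; 192 of its 192 columns matched their own array. Signals were corrected with limma's neqc (normexp on detection p-values, offset 16, quantile normalization) over all arrays together. Each tissue had 1 limma fit (limma 3.58.1, R 4.3.3) over 12 groups with chip as a block, 1 array per rat, on probes detected on at least 5 arrays, with Benjamini-Hochberg adjustment over all of them and a threshold of 0.05. The joint fit of both tissues had rat as a random block. The steps were tested on simulated data. Repeat arrays (8 hybridization and 1 amplification repeat in the prefrontal cortex, 12 hybridization repeats in the hippocampus) stayed out of the comparisons. The hybridization repeats gave the repeat SDs, and all repeats entered the alternative that averages the arrays of a rat; 3 of them carry conflicting injection labels. Genes come from the platform annotation (13787 probes with 1 symbol, 0 with several, 8715 unnamed). Members were named where called, among the 5 of smallest p on each side of 0 in a comparison, among the 12 of highest mean level in a tissue, on a list of well-known cytokine genes, or where detected in 1 tissue only; other names were chosen after their values were seen. The members and lists were chosen with earlier results of these data known. Alternatives covered background correction, scaling, filter, blocks, covariates, repeat arrays and each rat left out in turn. Array number limits the precision, and signals near background compress fold changes. Python 3.11.15, SciPy 1.17.1 and NumPy 2.4.6 were used for correlations.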

Additional observations from a re-analysis of the deposited data

Results flagged for a closer look

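For 20 genes whose values are described by rat, 468 gene and group combinations were examined for a single rat far from the rest of its group by Dixon's criterion, and 31 (6.62%) stood apart, where chance alone gives about 1 in 20. On the log2 scale, Ccl5 was 7.52 in hippocampus ethanol adjuvant day 16 replicate 5 (next 6.25) and 5.45 in hippocampus pairfed adjuvant day 16 replicate 7 (next 6.01). Tnfaip8 was 8.74 in hippocampus control adjuvant day 16 replicate 7 (next 7.82), 7.01 in hippocampus ethanol adjuvant day 16 replicate 8 (next 7.64) and 6.22 in prefrontal cortex control adjuvant day 16 replicate 9 (next 6.93). Cxcl12 was 9.65 in prefrontal cortex ethanol saline day 39 replicate 2 (next 10.53). The same array stood apart for Il33 and for Il12a, which was not detected on it. Il6 (5.89) and Il9 (5.74), also not detected, had their highest prefrontal cortex levels on this array, while Il5 (4.65) and Tnf (4.82) were not high. Whether the array as a whole differed was not tested. This array is among the ethanol rats of the steady-state comparisons. Cxcl11 was 5.41 in prefrontal cortex control saline day 39 replicate 4 (not detected, next 5.05) and 6.08 in prefrontal cortex pairfed adjuvant day 16 replicate 8 (next 5.28). Ccl11 was 5.59 in hippocampus ethanol adjuvant day 39 replicate 9 (not detected, next 4.90). Cxcl9 was 5.51 in prefrontal cortex control adjuvant day 39 replicate 4 (not detected, next 5.07) and 5.70 in prefrontal cortex pairfed adjuvant day 16 replicate 7 (next 4.93). Ifngr1 was 7.01 in prefrontal cortex pairfed adjuvant day 16 replicate 3 (next 8.003). Il15 was 4.80 in hippocampus pairfed saline day 39 replicate 6 (next 5.86). Il12a was 6.21 in hippocampus control saline day 39 replicate 2 (next 5.54), 4.58 in prefrontal cortex control saline day 16 replicate 2 (next 5.34) and 5.89 in prefrontal cortex ethanol saline day 39 replicate 2 (next 5.34). Il17ra was 4.86 in hippocampus ethanol saline day 16 replicate 1 (next 5.77). Il17rb was 4.92 in prefrontal cortex control saline day 39 replicate 4 (next 6.19). Tnfrsf21 was 4.68 in prefrontal cortex pairfed saline day 39 replicate 4 (next 6.23). Tnfrsf11b was 10.09 in prefrontal cortex control adjuvant day 16 replicate 5 (next 9.40) and 8.51 in prefrontal cortex pairfed saline day 39 replicate 6 (next 9.23). Il1rapl1 was 4.91 in prefrontal cortex control saline day 39 replicate 5 (next 5.90). Tnfsf13 was 8.94 in prefrontal cortex pairfed saline day 16 replicate 3 (next 9.32). Tnfrsf12a was 6.30 in prefrontal cortex control adjuvant day 16 replicate 9 (next 5.49), 6.03 in prefrontal cortex ethanol saline day 16 replicate 3 (next 5.42) and 4.53 in prefrontal cortex pairfed adjuvant day 16 replicate 3 (next 5.40). Il33 was 9.38 in hippocampus control saline day 39 replicate 4 (next 8.84), 5.31 in prefrontal cortex control adjuvant day 39 replicate 3 (next 8.10), 9.08 in prefrontal cortex control saline day 16 replicate 3 (next 8.10) and 9.63 in prefrontal cortex ethanol saline day 39 replicate 2 (next 8.55). Ccr2 was 5.80 in hippocampus pairfed saline day 16 replicate 3 (next 5.08). Among the low values, those of Ccl5, Il15, Il12a, Il17ra, Il17rb, Tnfrsf21, Il1rapl1, Tnfrsf12a and Il33 were not detected.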

How the results depend on the processing

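The count of called members was 0 in all 25 comparisons and in all 1043 alternative counts, of which 727 left out 1 rat each (range 0 to 0). Of 130 single differences, most of them selected at an unadjusted p below 0.05, the sign turned in 24 of 5322 alternatives, and a call was lost in 10 and gained in 0. Ccl5 in the prefrontal cortex, response of day 16 minus that of day 39, was -0.0234 with the hemoglobin covariate and ran from -0.0666 to 0.139 without 1 rat. Tnfaip8 in the hippocampus on day 39 was -0.15 with median scaling. Il1b in the hippocampus on day 16 was -0.0239 on the authors' deposited values, -0.024 without background correction, -0.0198 with median scaling, -0.00318 without the chip block, -0.00108 with chip as a random block, -0.0104 with the replicate block, -0.0144 with array weights and -0.0449 with the hemoglobin covariate, and ran from -0.0478 to 0.0509 without 1 rat. The Ccl5 difference for adjuvant against saline on day 16 in the prefrontal cortex ran from 0.64 to 0.76 (log2) when 1 rat was left out, with limma adjusted p from 0.102 to 0.438, and from 0.31 to 0.98 over the other settings, with adjusted p from 0.0932 to 0.859. The lowest values were 0.31 on the authors' deposited values and 0.31 without background correction. Cxcl12 in the hippocampus on day 16 was -0.65 with median scaling (limma adjusted p = 0.0693) and -0.18 with the hemoglobin covariate (adjusted p = 0.990); the causes were not tested. Tnfaip8 in the hippocampus on day 16 ran from 0.39 to 0.49 without 1 rat, with adjusted p from 0.0704 to 0.524. Rats of the same replicate number did not deviate together throughout: for adjuvant against saline on day 16 the correlation of their deviations from the group means was over 0.1 in 3 of 15 pairs in the prefrontal cortex (median 0.00201) and in 9 of 15 in the hippocampus (median 0.13), and in no comparison was it over 0.1 in every pair. The numbers were therefore not taken as pairs, and with the replicate block the count of called members was 0 in each comparison, while Nfkbia (0.50, adjusted p = 0.688), Hbb-b1 (0.46, adjusted p = 0.793), S100a8 (1.20, adjusted p = 0.445) and Lcn2 (1.17, adjusted p = 0.478) were not called in the prefrontal cortex on day 16 (limma). Without background correction 111 of 127 single differences were smaller by over 1.5 times. The settings added after the data were seen left 3 members correlated between the tissues. Signals near background limit what could be seen for the undetected members.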
